A study of Mus musculus with 12 samples.

Results

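Genes for the uptake, binding and efflux of lipids were examined in regulatory T cells (Treg) from a venous thrombus, from the vein wall around it and from the spleen. The group holds 10 genes, matched by name (the set of names was drawn up with earlier results of these data known), of 20742 genes that could be joined over all deposited files. By role they are Cd36 and Lpl (uptake), Fabp4 and Fabp5 (binding inside the cell), Abca1 and Abcg1 (efflux), Nr1h2 and Nr1h3 (the receptors that switch efflux on), and Cpt1a and Acsl4 (use of fatty acids). None of the 10 genes passed the test over all genes. No exon read of Cd36 was found in any spleen library. The vein wall samples held 21 to 272 and the thrombus samples 2 to 94, but thrombus 2 and 3 held 2 each, and none of the 272 reads in vein wall 3-4 crossed an exon junction. Fabp4 was higher in every vein wall sample than in any spleen sample.

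The cells were live CD45+ CD4+ CD69+ cells with EGFP, sorted from DEREG mice. The mice were of a C57BL/6 strain, and the transgene, Tg(Foxp3-DTR/EGFP)23.2Spar, makes a diphtheria toxin receptor and EGFP under Foxp3 control, so the sort selects Foxp3-expressing cells and CD69 marks recent activation or residence in tissue. All mice, those that gave the spleens included, had a ligated inferior vena cava, a flow reduction model of deep vein thrombosis, and organs were taken at day 14. There were 4 libraries each of spleen, thrombus and vein wall, and no group without ligation is among the samples. The labels give neither age nor sex, and they do not say whether a library came from 1 mouse or several, and p-values here reflect how far the samples of a tissue scatter, part of which may be technical.

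Fatty acids enter cells with the help of CD36, a scavenger receptor at the cell surface that also takes up oxidised lipoproteins. Lipoprotein lipase, the product of Lpl, frees fatty acids from triglyceride in lipoproteins outside the cell. Inside, the fatty acid binding proteins FABP4 and FABP5 carry fatty acids to membranes, mitochondria and nuclear receptors. Cholesterol leaves the cell through the transporters ABCA1 and ABCG1, whose genes are switched on by the oxysterol-sensing liver X receptors LXRβ (Nr1h2) and LXRα (Nr1h3). CPT1A moves long-chain fatty acids into mitochondria for oxidation, and ACSL4 couples polyunsaturated fatty acids to coenzyme A so that they can enter phospholipids. Treg in adipose tissue are known for CD36 and for lipid uptake.

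CD36 and CPT1A are both known to be controlled by lipid-sensing nuclear receptors, which bind copies of the half-site AGGTCA, so their promoters are shown. The RefSeq promoter table (GRCm38.p6) had entries for 6 of the 10 genes, with none for Fabp4, Fabp5, Lpl or Abcg1. Both strands of the 250 bases before each annotated start were searched for AGGTCA and for a pair of such half-sites in the same direction with 4 bases between them, at most 1 mismatch in each. The half-site was found in Cd36 and Cpt1a, and 14.0% of 32851 promoter windows of this length hold one. It starts 228 bases before the annotated start used for Cd36 and 94 bases before that of Cpt1a. The Cd36 window lies inside the span of its gene model (17781690 to 17888801), so this start is not the outermost one. At this limit the pair was found in none of the 6 genes, against 1.48% of all windows. A pair with more than 1 mismatch in a half-site was not counted. The Abca1 window holds such a stretch, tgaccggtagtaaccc, with the pair on the other strand. The result therefore does not show that these promoters lack the element. These are matches of letters in 1 window and say nothing of binding. Both sequences read 5′ to 3′ on the gene's strand, with the half-site in capitals, here in its reverse orientation.
Cd36 (chr5:17835897-17836146, minus strand): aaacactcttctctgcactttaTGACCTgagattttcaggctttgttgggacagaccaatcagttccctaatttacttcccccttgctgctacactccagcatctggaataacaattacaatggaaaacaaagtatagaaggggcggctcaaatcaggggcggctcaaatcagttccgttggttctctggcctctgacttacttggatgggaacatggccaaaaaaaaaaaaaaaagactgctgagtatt
Cpt1a (chr19:3323051-3323300, plus strand): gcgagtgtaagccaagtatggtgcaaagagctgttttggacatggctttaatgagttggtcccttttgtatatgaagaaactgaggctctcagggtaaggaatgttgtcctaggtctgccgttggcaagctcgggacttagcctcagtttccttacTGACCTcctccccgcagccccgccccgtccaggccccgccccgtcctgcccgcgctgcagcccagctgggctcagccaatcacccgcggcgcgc

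Libraries held 9719151 to 55386086 exon reads, and 3 reads, the limit that a count of 0 allows at 95% confidence, corresponded to 0.0390 to 0.319 CPM in a sample (CPM, reads of a gene as a share of the library scaled to a common total). Spleen 3 and 4, and vein wall 3 and 4, were near-duplicates of each other and were summed (spleen 3-4 and vein wall 3-4), which left 3 spleen, 4 thrombus and 3 vein wall samples. The deposited files also fall into 3 sets by layout: set 1 holds spleen 1 and thrombus 1, set 2 (with other gene models) holds spleen 2, thrombus 2 and vein wall 1, and set 3 holds the rest. The first principal component of all tested genes took up 25.2% of the variance, and set (r2 = 0.879) but not tissue (r2 = 0.0392) tracked it, so values within each set are given beside the pooled ones. Genes of the sort were present in every sample, with Foxp3 at 277 to 710 CPM. The 10 genes of the Treg list summed to 8841 to 12652 CPM. Cd3e, Cd3g, Cd4, Cd69 and Ptprc among them are not particular to Treg, and Cd3g alone gave 1622 to 4876 CPM.

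**Figure D1:**
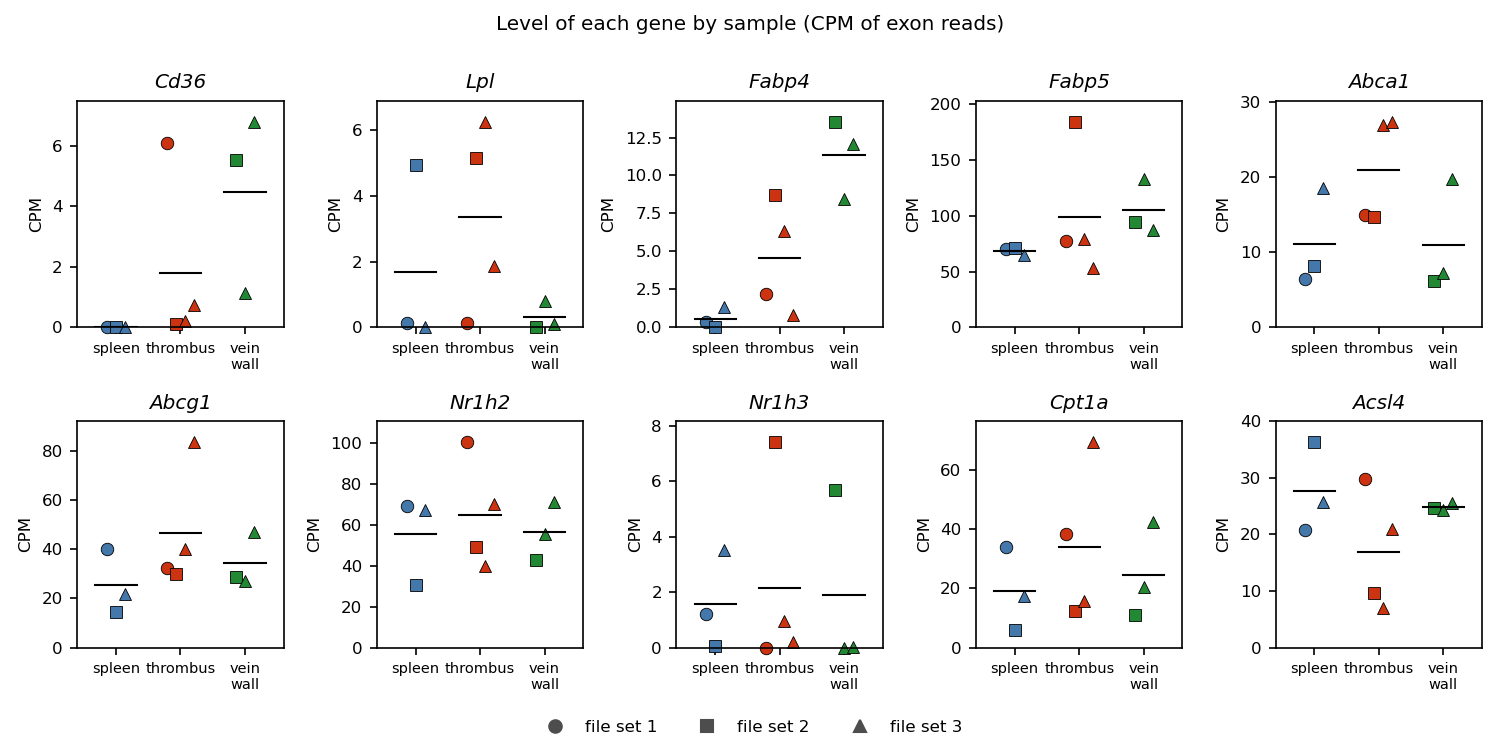
Level of each of the 10 genes in CPM of exon reads, on a linear axis from 0, for 3 spleen, 4 thrombus and 3 vein wall samples. Each symbol is 1 sample, its shape is the file set and the line is the group mean. Cd36 is at 0 in all spleen samples, Fabp4 in the vein wall lies at 8.42 to 13.6 CPM above all spleen samples, and the other genes except Fabp5 in the vein wall overlap the spleen.

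Tested with edgeR's quasi-likelihood test over 11629 genes, 0 of the 10 genes were called higher or lower at an adjusted p under 0.05 in thrombus against spleen, where 17 genes (0.146% of all tested) were called higher and 0 (0%) lower. In vein wall against spleen 0 of the 10 were called, beside 13 genes called higher (0.112%) and 0 lower. In thrombus against vein wall 0 of the 10 were called, and 0 of all genes. At an unadjusted p under 0.05 the counts were 1 of the 10 in thrombus against spleen (4.15% of all genes), 2 in vein wall against spleen (5.43%) and 0 in thrombus against vein wall (2.92%). DESeq2, run as an alternative, called 1 of the 10 in each comparison with the spleen, which was Cd36 both times, and 0 in thrombus against vein wall. Over all genes DESeq2 called 103 higher, the direction of Cd36, and 1 lower in the thrombus against the spleen. It called 88 higher and 30 lower in the vein wall against the spleen, and 10 higher in thrombus against vein wall. All 10 genes passed the filter on low counts. Cd36 passed it only through the thrombus and vein wall samples, so that its difference from the spleen was fixed by the filter and is a description here. Fabp4, with 5, 0 and 105 exon reads in spleen 1, 2 and 3-4, would not have passed on the spleen samples alone. Its direction against the spleen was thus favoured by the filter, and its difference is likewise a description.

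Most of the 10 fold changes were above 0 in the thrombus. Of the 10 genes, 9 had a log2 fold change above 0 in thrombus against spleen, with a median of 0.85, where 52.1% of all genes were above 0 and their median was 0.03. In vein wall against spleen 7 of 10 were above 0 (median 0.31, against 49% and -0.01 over all genes), and in thrombus against vein wall 6 of 10 (median 0.19, against 52.3% and 0.04). The first 2 comparisons share the spleen samples. Cd36, whose direction against the spleen was fixed by the filter, is among the 9 and the 7. So is Fabp4, whose direction the filter favoured. In thrombus against spleen, Nr1h2 and Nr1h3 changed sign in 2 and 5 of 19 alternatives. The names were drawn up with earlier results of these data known, so these counts are a description only. Samples did not overlap between groups for 1 of the 10 genes in thrombus against spleen, which was Cd36, with 2.49% of all genes higher and 2.5% lower without overlap. That count for Cd36 includes thrombus 2, whose 0.112 CPM lies below the limit that 0 reads allow in spleen 1 (0.211 CPM) and spleen 2 (0.162 CPM). They did not overlap for 3 in vein wall against spleen, Cd36, Fabp4 and Fabp5, all higher, with 6.73% of all genes higher and 6.5% lower in this way. For thrombus against vein wall all 10 overlapped, beside 2.33% of all genes higher and 1.49% lower without overlap.

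**Figure D2:**
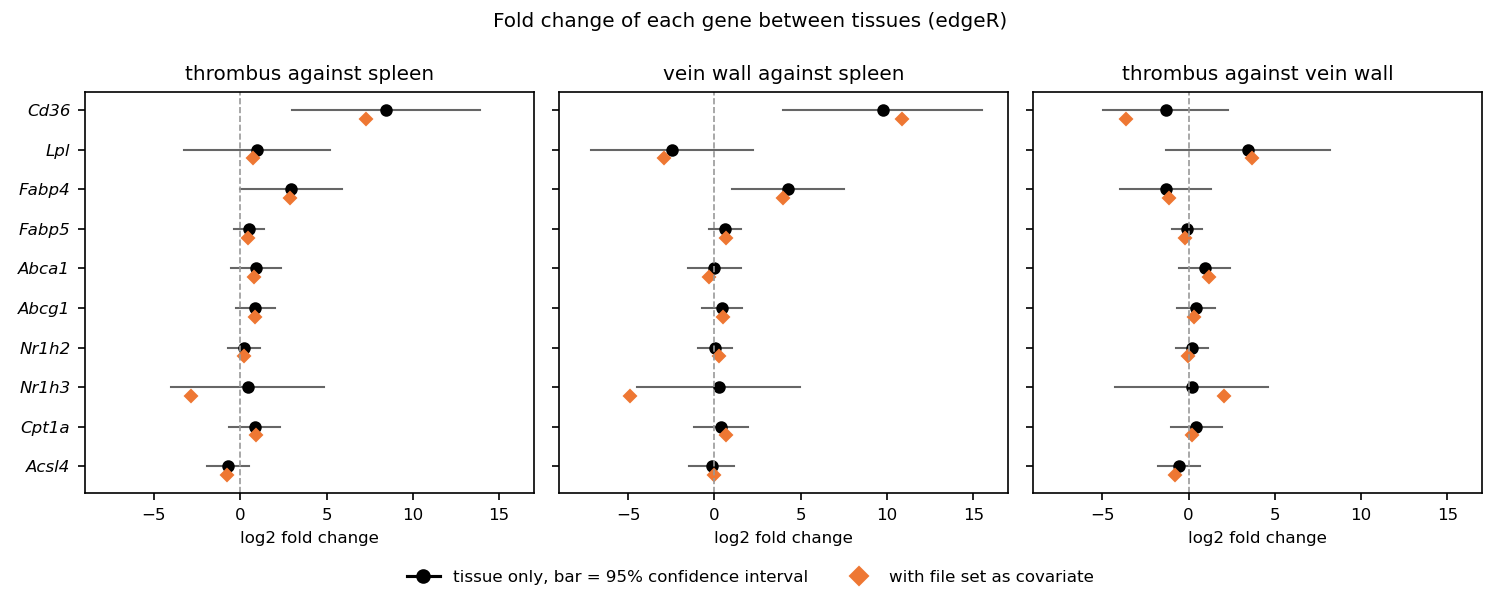
Log2 fold change of each gene in the 3 comparisons, from edgeR with tissue only (black points, with bars for 95% confidence intervals) and with file set as a covariate (orange diamonds). The intervals of Cd36 in both comparisons with the spleen (2.97 to 13.87 and 3.97 to 15.51) and of Fabp4 in vein wall against spleen (1.02 to 7.49) lie above 0, and Nr1h3 changes sign against the spleen when the set is a covariate.

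Cd36 (ENSMUSG00000002944, GRCm38 chromosome 5, 17781690 to 17888801, minus strand) had 0 exon reads in all spleen samples. In the thrombus it had 94, 2, 2 and 8 exon reads in samples 1 to 4, or 6.11, 0.112, 0.213 and 0.745 CPM. In the vein wall it had 87, 21 and 272 exon reads in samples 1, 2 and 3-4, or 5.54, 1.13 and 6.81 CPM. Thrombus 1, vein wall 1 and vein wall 3-4 were high, the other 3 thrombus samples held fewer than 10 reads each, and the spleen samples were at 0. At 3 reads, a count of 0 allows 0.211, 0.162 and 0.0390 CPM in spleen 1, 2 and 3-4, so thrombus 2 was not distinguishable at this depth from spleen 1 or 2, and thrombus 3 lay almost at the limit of spleen 1. All vein wall samples lay above these limits. Over all reads of a tissue, Cd36 was at least 72.7-fold higher in the thrombus and at least 187-fold higher in the vein wall than 3 reads over the whole spleen group (0.0274 CPM). Thrombus 1 gave 94 of the 106 thrombus reads, and without it the bound was 11.6-fold. Without spleen 3-4, the deepest sample, it was 21.7-fold for the thrombus and 56.0-fold for the vein wall, and without vein wall 3-4 it was 115-fold for the vein wall. These bounds were added after seeing the data. The edgeR fold changes, which for a gene at 0 depend on the prior count, were 8.42 ± 2.58 on the log2 scale (SE, unadjusted p = 0.00467, adjusted p = 0.593) for the thrombus and 9.74 ± 2.73 (unadjusted p = 0.00245, adjusted p = 0.460) for the vein wall.

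The reads of Cd36 differed in kind between samples. Reads that cross from one exon to the next made up 41 of 94 exon reads in thrombus 1, 22 of 87 in vein wall 1 and 6 of 21 in vein wall 2. They made up 0 of 272 in vein wall 3-4 and 1 in total of the 12 in thrombus 2, 3 and 4, while over all genes 21.8% to 26.4% of a sample's exon reads crossed a junction. Spleen samples did hold intron reads of the gene (7, 13 and 7), and in the thrombus introns held 60.6% of all Cd36 reads, with 88 of 90 reads in thrombus 2, against 11.8% in the vein wall. Counted over exons and introns together, the log2 fold change of Cd36 was 3.38 in the thrombus (edgeR adjusted p = 0.759) and 3.53 in the vein wall (adjusted p = 0.707). Without thrombus 1 the log2 fold change over exons against the spleen was 6.14 (adjusted p = 0.899). DESeq2 gave 8.01 (adjusted p = 0.0149) and 9.37 (adjusted p = 0.00304). Over 19 alternatives the adjusted p lay between 0.0149 and 1.00 for the thrombus and between 0.00304 and 0.942 for the vein wall.

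Lpl (chromosome 8, 68880491 to 68907448, plus strand), the lipase that releases fatty acids for uptake, was low and scattered. Spleen samples 1, 2 and 3-4 were at 0.141, 4.96 and 0 CPM, thrombus samples 1 to 4 at 0.130, 5.17, 6.27 and 1.86, and vein wall samples 1, 2 and 3-4 at 0, 0.810 and 0.100. Both the spleen and the thrombus thus held high and near-zero samples, and the vein wall held none above 1 CPM. The log2 fold change was 0.98 ± 2.02 (SE, edgeR adjusted p = 1.00) in thrombus against spleen, -2.47 ± 2.23 (adjusted p = 0.963) in vein wall against spleen and 3.45 ± 2.27 (adjusted p = 1.00) in thrombus against vein wall. Spleen 2 alone set the direction for the vein wall: without it the value was 2.27, and for the thrombus it was 5.72. Of the 92 Lpl reads in spleen 2, 2 crossed an exon junction, against 21 of 92 in thrombus 2, and 55% of the 20 reads in thrombus 4 also matched elsewhere in the genome.

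Fabp4 (ENSMUSG00000062515, chromosome 3, 10204088 to 10208576, minus strand), the fatty acid binding protein best known from adipocytes, macrophages and capillary endothelium, was the gene with the clearest order of tissues. Its level was 0.352, 0 and 1.37 CPM in spleen 1, 2 and 3-4, then 2.21, 8.71, 6.38 and 0.839 CPM in thrombus 1 to 4, and 13.6, 8.42 and 12.0 CPM in vein wall 1, 2 and 3-4. All vein wall samples lay above all spleen samples, 3 of 4 thrombus samples did so, and thrombus 2 lay just above the lowest vein wall sample. Group means were 0.572 ± 0.709 CPM (SD, n = 3), 4.53 ± 3.65 (n = 4) and 11.3 ± 2.64 (n = 3).

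The log2 fold change of Fabp4 was 4.26 ± 1.54 (SE, unadjusted p = 0.0126, edgeR adjusted p = 0.771) in vein wall against spleen and 2.93 ± 1.41 (adjusted p = 1.00) in thrombus against spleen. Pooled over a tissue's reads the vein wall was 11.4-fold above the spleen (95% counting interval 9.36 to 14.1) and the thrombus 4.82-fold (3.84 to 6.09), intervals that hold no spread between samples. Spleen 3-4 held 105 of the 110 spleen reads. Without it the ratios, computed after seeing the data, were 75.1 for the vein wall and 31.7 for the thrombus, and the edgeR log2 fold changes 6.00 and 4.68. Without thrombus 2 the ratio for the thrombus was 2.89. Thrombus and vein wall differed by -1.32 ± 1.26 (log2, adjusted p = 1.00), which did not exceed the spread between samples. Unlike Cd36 the reads were spliced in every vein wall sample, with 65 of 213, 56 of 156 and 148 of 481 exon reads across a junction. Vein wall 3-4 also held 240 intron reads of Fabp4, in both of its libraries, where the other vein wall samples had 0. DESeq2 gave an adjusted p of 0.0504 for the vein wall, and over 19 alternatives edgeR's and DESeq2's adjusted p lay between 0.0504 and 0.979.

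Fabp5 (ENSMUSG00000027533, chromosome 3, 10012548 to 10016607, plus strand) is the binding protein that T cells are known to express, and it was the most abundant of the 10 genes. It stood at 70.3, 71.2 and 64.4 CPM in spleen 1, 2 and 3-4, at 77.3, 185, 79.2 and 53.2 CPM in thrombus 1 to 4, and at 94.4, 133 and 87.7 CPM in vein wall 1, 2 and 3-4. The spleen samples were close to each other, each vein wall sample was higher, and the thrombus ranged from below the spleen to thrombus 2, the highest of all. Log2 fold changes were 0.62 ± 0.44 (SE, 95% interval -0.31 to 1.54, edgeR adjusted p = 0.962) in the vein wall and 0.52 ± 0.41 (adjusted p = 1.00) in the thrombus, so neither exceeded the spread. Without thrombus 2 the latter was 0.03. Reads with more than 1 match made up 23.8% to 29.2% of Fabp5 exon reads in sets 2 and 3 and 45.2% to 49.4% in set 1, whose gene model is 3567 bases long against 953 and 987, so its level may hold reads of near-identical copies.

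Of the efflux transporters, Abca1 (chromosome 4, 53030787 to 53159895, minus strand) had its highest values in the thrombus. It was at 6.47, 8.19 and 18.5 CPM in spleen 1, 2 and 3-4, at 14.9, 14.7, 26.9 and 27.4 CPM in thrombus 1 to 4, and at 6.11, 7.23 and 19.7 CPM in vein wall 1, 2 and 3-4. Spleen 3-4 and vein wall 3-4 were high in their groups and reached into the thrombus range. The log2 fold change was 0.92 ± 0.70 (SE, edgeR adjusted p = 1.00) in thrombus against spleen, 0.93 ± 0.70 (adjusted p = 1.00) in thrombus against vein wall and -0.01 ± 0.73 (adjusted p = 1.00) in vein wall against spleen. Within every set the thrombus was above the spleen, by 1.14, 0.80 and 0.54 in log2(CPM + 0.5), and above the vein wall, by 1.20 and 1.15 in sets 2 and 3. Within single samples its reads were rarely spliced, with 1 of 1421 exon reads across a junction in spleen 3-4 and 0 of 294 in thrombus 4.

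Abcg1 (chromosome 17, 31057698 to 31115777, plus strand), the second transporter, was at 39.97, 14.4 and 21.8 CPM in the spleen samples, at 32.6, 29.8, 40.3 and 83.8 CPM in the thrombus samples and at 28.9, 27.0 and 47.0 CPM in those of the vein wall, each in the order given above. Thrombus 4 was highest and spleen 2 lowest, and the 3 tissues overlapped. The log2 fold change was 0.88 ± 0.53 (SE, 95% interval -0.23 to 1.98, edgeR adjusted p = 1.00) for the thrombus and 0.43 ± 0.55 (adjusted p = 0.976) for the vein wall against the spleen. An rRNA gene model, Gm25447, lies inside Abcg1 on the same strand.

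The receptors that act on both transporters behaved unlike each other. Nr1h2 (LXRβ, chromosome 7, 44549616 to 44553951, minus strand) was present throughout at 30.5 to 101 CPM, with group means of 55.8 ± 21.9 (SD, n = 3) in the spleen, 65.1 ± 26.9 (n = 4) in the thrombus and 56.6 ± 14.2 (n = 3) in the vein wall. Its log2 fold changes against the spleen were 0.22 ± 0.44 (SE, 95% interval -0.71 to 1.15) for the thrombus and 0.02 ± 0.47 (-0.97 to 1.01) for the vein wall. Changes beyond about these bounds are outside the intervals, and smaller ones could not be told from the spread.

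Nr1h3 (LXRα, chromosome 2, 91184061 to 91202834, minus strand) was instead present or almost absent from sample to sample. Spleen 1, 2 and 3-4 held 1.196, 0.0539 and 3.51 CPM, thrombus 1 to 4 held 0, 7.42, 0.956 and 0.186 CPM, and vein wall 1, 2 and 3-4 held 5.66, 0 and 0.0250 CPM. The highest sample of the thrombus and of the vein wall, thrombus 2 and vein wall 1, both belong to set 2, whose spleen sample had 1 read. The log2 fold changes against the spleen were 0.43 ± 2.12 (SE) for the thrombus and 0.24 ± 2.25 for the vein wall (edgeR adjusted p = 1.00 for both). They turned to -2.85 and -4.89 with the set as covariate, to -2.04 without thrombus 2 and to -6.30 without vein wall 1. Those samples also had the highest sums of the macrophage and dendritic cell lists, though single genes differed. Their summed macrophage markers were 1783 and 274 CPM against 26.4 to 254 in the other 8 samples. In vein wall 1, Lyz2 alone gave 239 CPM, with Csf1r at 0.255 and Adgre1 at 0 CPM. Siglech, a marker of plasmacytoid dendritic cells, was at 76.3 and 12.8 CPM against at most 0.213, and H2-Ab1 at 2215 and 2360 CPM against at most 617. Of the same list, Zbtb46 was at 1.07 and 2.93 CPM, against 4.62 to 12.3 CPM in the spleen. Xcr1 was at 0 and 0.764 CPM, against 0.323 to 1.55 CPM in the spleen. The part of such cells in the Nr1h3 level was not tested. Intron reads numbered 85 and 97 in vein wall 2 and 3-4, where exon reads numbered 0 and 1. Gene models Gm13783 on the same strand and Gm23390 on the other overlap the gene, and the library kit does not mark strand.

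Of the genes for the use of fatty acids, Cpt1a (chromosome 19, 3323301 to 3385732, plus strand) ranged widely inside each tissue. It was at 34.0, 5.98 and 17.2 CPM in spleen 1, 2 and 3-4, at 38.4, 12.3, 15.6 and 69.5 CPM in thrombus 1 to 4, and at 11.1, 20.4 and 42.4 CPM in vein wall 1, 2 and 3-4. Thrombus 4 was highest, all 3 set 2 samples were low, and the tissues overlapped. The log2 fold change was 0.83 ± 0.71 (SE, edgeR adjusted p = 1.00) for the thrombus and 0.37 ± 0.75 (adjusted p = 0.981) for the vein wall against the spleen. Within sets the thrombus was above the spleen in all 3, by 0.17 to 0.98 in log2(CPM + 0.5), and the vein wall in both, by 0.84 and 0.75.

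Acsl4 (chromosome X, 142317993 to 142390535, minus strand) was the 1 gene of the 10 with a log2 fold change below 0 in thrombus against spleen. Its level was 20.8, 36.4 and 25.8 CPM in the spleen, 29.8, 9.55, 6.91 and 21.0 CPM in the thrombus and 24.8, 24.3 and 25.6 CPM in the vein wall. Thrombus 2 and 3 lay below every other sample, thrombus 1 lay inside the spleen range, and the vein wall samples were nearly equal. The log2 fold change of -0.72 ± 0.58 (SE, 95% interval -1.94 to 0.51, edgeR adjusted p = 1.00) for the thrombus did not exceed the spread, nor did -0.15 ± 0.63 (adjusted p = 0.994) for the vein wall. Introns held 24.9% to 65.8% of its reads in spleen samples and up to 80.4% in thrombus 3.

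Levels between genes were compared as CPM per kilobase of exon, averaged over the 10 samples. The order was Fabp5 at 83.2, Nr1h2 at 22.8, Abcg1 at 9.13, Cpt1a at 6.12, Fabp4 at 6.06, Acsl4 at 4.15, Abca1 at 1.45, Nr1h3 at 0.875, Cd36 at 0.558 and Lpl at 0.463 CPM per kilobase. Neighbours from Abcg1 to Acsl4, and from Abca1 to Lpl, lay closer together than the spread between samples of each. Exon lengths differ between the sets, most of all for Fabp5 (3567 bases in set 1, 953 and 987 in sets 2 and 3). Over sets 2 and 3 alone Fabp5 was at 98.8 CPM per kilobase. There Fabp4 (7.22) stood above Cpt1a (5.54), and Lpl (0.574) above Cd36 (0.484). In the vein wall Fabp4, at 12.8 ± 3.08 CPM per kilobase (SD, n = 3), stood above Abcg1 at 8.49 ± 4.12, while in the spleen it stood at 0.639 ± 0.791 against 6.12 ± 3.68. By mean CPM, Cd36, Nr1h3 and Lpl exceeded 49.8% to 50.3% of all joined genes, and Fabp5 exceeded 89.1%.

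The 10 genes also differed in how many of their exon reads crossed a junction, summed over all samples. The share was 31.4% for Fabp4, 27.3% for Fabp5, 24.0% for Nr1h2 and 23.4% for Nr1h3, close to or above that of all genes. It was 14.4% for Cd36, 12.2% for Lpl and 11.2% for Acsl4. It was lowest for the efflux and oxidation genes, at 5.30% for Cpt1a, 3.88% for Abcg1 and 2.45% for Abca1.

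Inside the file sets, where libraries share a layout and gene models, differences from the spleen had 1 sign for some genes and both for others. For Cd36 the sign is fixed by the 0 in every spleen sample, so its differences give a size only. In log2(CPM + 0.5) they were 3.72, 0.29 and 0.91 in the thrombus of sets 1, 2 and 3, where the 0.29 rests on 2 reads, and 3.59 and 2.79 in the vein wall of sets 2 and 3. Fabp4 was above the spleen in the thrombus by 1.67, 4.20 and 0.70, and in the vein wall by 4.81 and 2.50. Fabp5 was above it by 0.14, 1.37 and 0.01 in the thrombus and by 0.40 and 0.74 in the vein wall. For Lpl, Nr1h2, Nr1h3, Abcg1 and Acsl4 the thrombus differences had both signs. Set 1 has no vein wall library, and most of these differences compare 1 sample with 1, so no test was made within a set. With the set as covariate, edgeR gave Cd36 a log2 fold change of 7.29 (adjusted p = 0.331) in the thrombus and 10.88 (adjusted p = 0.142) in the vein wall, and Fabp4 2.86 (adjusted p = 0.786) and 3.97 (adjusted p = 0.547). With this covariate 50 genes (0.43%) were called higher and 3 (0.0258%) lower in the thrombus, and 45 (0.387%) higher and 3 (0.0258%) lower in the vein wall, with 0 of the 10 among them.

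**Figure D3:**
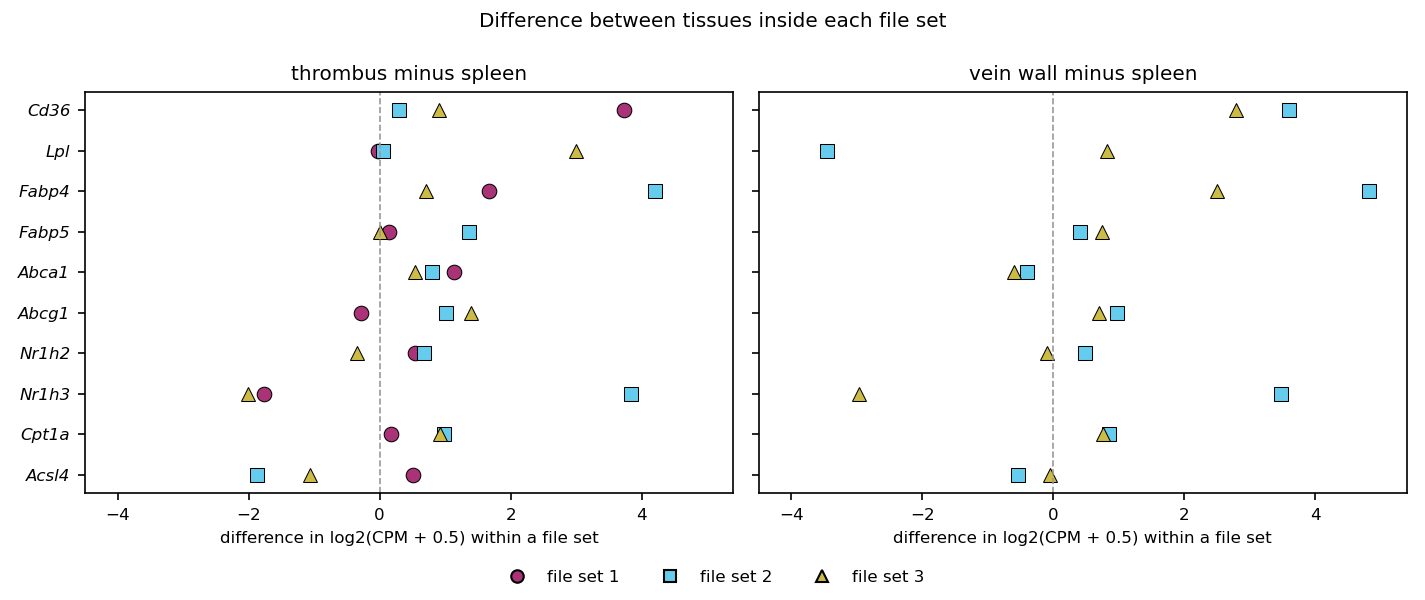
Difference from the spleen in log2(CPM + 0.5) inside each file set, for the thrombus (left, 3 sets) and the vein wall (right, sets 2 and 3, since set 1 has no vein wall library). Symbols mark the set and the dashed line is 0. Fabp4, Fabp5 and Cpt1a lie above 0 in every set of both panels, as Cd36 must with the spleen at 0, and Nr1h3 lies on both sides.

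Adipocytes, macrophages, capillary endothelium and platelets are other cells known for CD36 or FABP4, so marker lists were summed in each sample. All fibroblast markers together were at 0.141 to 0.494 CPM in the spleen, 9.88 to 18.995 in the thrombus and 13.2 to 63.3 in the vein wall. Of the 10 fibroblast genes, 6 had a read in the spleen, with Col3a1, Col1a2, Pdgfra and Pdgfrb at 0, 10 in the thrombus, and 9 in the vein wall, with Pdgfrb at 0. Decorin (Dcn) reached 49.8 CPM in vein wall 2, and the collagen genes Col1a1 and Col3a1 at most 2.33 and 6.64 CPM in any sample. The 11 adipocyte markers summed to 0 to 1.27 CPM in the spleen, 1.46 to 36.1 in the thrombus and 1.40 to 2.80 in the vein wall. Adiponectin (Adipoq) was at 0 in all spleen samples, in thrombus 1 and 2 and in vein wall 1. It was at 0.106 CPM in thrombus 3, at 1.96 CPM in thrombus 4, the highest of all samples, and at 1.13 and 0.726 CPM in vein wall 2 and 3-4. Thrombus 3 had the highest adipocyte sum, of which Cfd gave 14.7 and Car3 14.5 CPM. Thrombus 1, 2 and 4 were at 2.01, 1.46 and 4.10 CPM.

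The 12 endothelial markers summed to 24.3 to 56.9 CPM in the spleen, 56.1 to 67.8 in the thrombus and 44.7 to 50.9 in the vein wall. Pecam1, which leukocytes also carry, made up most of this, and the defining genes Cdh5 and Emcn were at most 3.25 CPM and at 0 in every sample. The 16 macrophage and monocyte markers summed to 65.6 to 254 CPM in the spleen, 55.8 to 1783 in the thrombus and 26.4 to 274 in the vein wall. The lowest value, 26.4 CPM, belonged to vein wall 3-4. In that sample C1qa and Adgre1 were at 0, while Lyz2 was at 11.6, Cd68 at 4.71, Csf1r at 3.01 and C1qb at 2.98 CPM. The dendritic cell list reached 11009 CPM in thrombus 2 and 12011 CPM in vein wall 1 against 1165 to 2931 in the other samples, mostly from Cd74 and class II genes. B cell markers were highest in the same samples, at a summed 946 and 1374 CPM against 121 to 407 in the others. The part of these cells in the levels of Cd36 and Fabp4 was not tested, and in sorted bulk samples fewer cells of a type and less RNA per cell cannot be told apart. Platelet and megakaryocyte markers, of a cell type that carries CD36, summed to 1.19 to 4.93 CPM in the spleen, 4.57 to 50.4 in the thrombus and 0 to 6.54 in the vein wall. The part of platelets was not tested either.

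**Figure D4:**
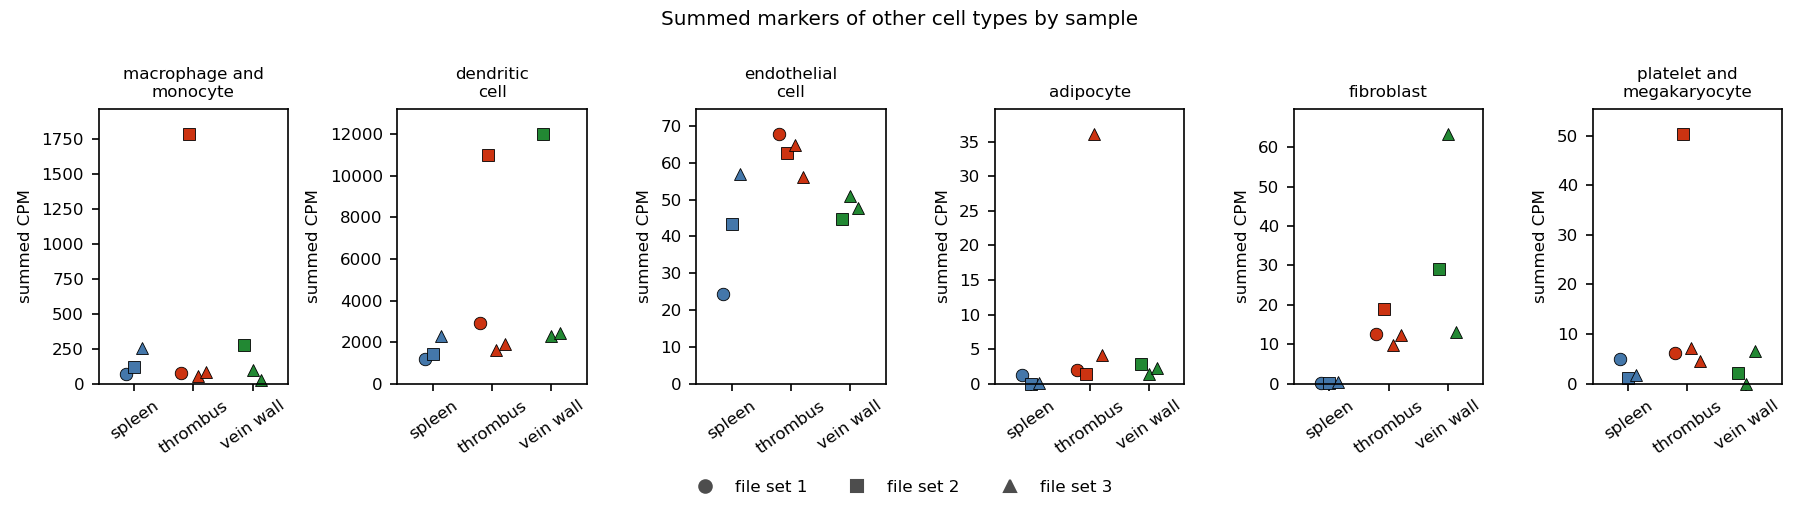
Summed CPM of the marker genes of 6 other cell types, 1 symbol per sample with the shape for the file set, on linear axes from 0 that differ between panels. Fibroblast markers are at 0.141 to 0.494 CPM in the spleen and at 9.88 or more in all thrombus and vein wall samples, and macrophage markers are highest in thrombus 2 at 1783 CPM.

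The rest of the pathway was read from 8 lists of genes beside the 10, and edgeR called 0 of their genes in any comparison, with or without the set as covariate. Among 7 tested genes of fatty acid uptake and transport, 4 were above 0 in thrombus against spleen (median log2 fold change 0.18) and 3 in vein wall against spleen (median -0.26). Scarb1, the HDL receptor, was at 1.83, 0.431 and 10.7 CPM in the spleen samples and at 15.2, 7.42, 5.53 and 13.2 CPM in the thrombus samples, which overlap, with a log2 fold change of 1.25 ± 1.13 (SE, adjusted p = 1.00). Ffar2, a receptor for short-chain fatty acids, had at most 0.0501 CPM in the vein wall against 0.700 to 1.81 CPM in the spleen (log2 fold change -5.74 ± 2.21, unadjusted p = 0.0180, adjusted p = 0.806). Of 7 lipoprotein receptor genes, 5 were above 0 in the thrombus (median 0.34) and 1 in the vein wall (median -0.62). Of 6 other intracellular lipid binding genes the numbers were 3 (median 0.14) and 4 (median 0.32). Dbi, the acyl-CoA binding protein, was at 160 to 233 CPM in the spleen and 308 to 378 CPM in the vein wall without overlap (log2 fold change 0.78 ± 0.35, unadjusted p = 0.0407, adjusted p = 0.888).

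Lipid hydrolysis and cholesterol trafficking were read next. In the first list 4 of 7 tested genes were above 0 in each comparison with the spleen (medians 0.19 and 0.02). Lipe, hormone-sensitive lipase, was at 0.844, 0.808 and 1.61 CPM in the spleen and at 1.23, 8.04, 16.2 and 18.8 CPM in the thrombus (log2 fold change 3.33 ± 1.30, unadjusted p = 0.0192, adjusted p = 0.980). Mgll, monoglyceride lipase, had no read in the spleen and 0.0562 to 1.88 CPM in the thrombus, and it was at 0, 2.92 and 0.651 CPM in vein wall 1, 2 and 3-4. Mgll passed the filter only through these 2 tissues, so its direction against the spleen was fixed. Of 11 cholesterol efflux and trafficking genes, 6 were above 0 in the thrombus (median 0.41) and 5 in the vein wall (median -0.05). Soat1, which esterifies cholesterol for storage, was at 22.1, 10.99 and 28.6 CPM in the spleen and at 58.4, 12.9, 42.2 and 136 CPM in the thrombus (log2 fold change 1.60 ± 0.63, unadjusted p = 0.0196, adjusted p = 0.992). Pltp, the phospholipid transfer protein and an LXR target, was at 38.4 and 24.5 CPM in thrombus 2 and 4 and at 29.6 CPM in vein wall 1, with at most 1.84 CPM in the other 7 samples. Thrombus 2 and vein wall 1 were also the highest samples of Nr1h3. Thrombus 4, however, held Nr1h3 at 0.186 CPM, and spleen 3-4, with Nr1h3 at 3.51 CPM, had Pltp at 0.

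Among 12 LXR targets and nuclear receptor partners, 7 were above 0 in the thrombus (median 0.34) and 5 in the vein wall (median -0.37). Ncor1, a corepressor that holds such receptors silent, was at 210 to 316 CPM in the spleen, 119 to 177 CPM in the thrombus and 78.7 to 157 CPM in the vein wall, with no overlap of either tissue with the spleen. Its log2 fold change was -0.80 ± 0.33 (unadjusted p = 0.0253, adjusted p = 1.00) and -1.04 ± 0.36 (unadjusted p = 0.00953, adjusted p = 0.725). Of 19 fatty acid oxidation genes, 14 were above 0 in the thrombus (median 0.13) and 10 in the vein wall (median 0.06), beside 52.1% and 49% of all genes. Etfa, a subunit of the electron carrier of this pathway, had the lowest p of the list in the vein wall at 0.113 (log2 fold change 0.59 ± 0.36). Of 10 acyl-CoA synthetase and phospholipid remodelling genes, 7 were above 0 in the thrombus (median 0.13) and 5 in the vein wall (median -0.11). Acsl3, a relative of Acsl4, was at 0.704 to 3.77 CPM in the spleen and at 19.5, 3.93, 7.33 and 16.03 CPM in the thrombus without overlap (log2 fold change 2.58 ± 1.15, unadjusted p = 0.0374, adjusted p = 1.00).

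The tested genes whose log2 CPM followed each gene most closely over the 10 samples are given as a description, since the samples share file sets and tissues. Closest to Cd36 were Gprc5a (Pearson r = 0.958), Aldh2 (0.940) and Lifr (0.920). Closest to Fabp4 were Plcg2 (0.952), Phyh (0.909) and Npc2 (0.904), of which Npc2 moves cholesterol out of lysosomes. Nr1h3 was followed by Tlr6 (0.937), by Mpeg1 (0.924), a gene of macrophages, and by Olfr99 (0.920). Lpl was followed by Tshz2 (0.890), Slc35g2 (0.875) and Mvb12b (0.848). For the other 6 genes the highest r was 0.892 for Abca1 with Hvcn1, 0.945 for Abcg1 with Ammecr1, 0.936 for Nr1h2 with Lbr, 0.927 for Fabp5 with Nhej1, 0.960 for Cpt1a with Crebbp and 0.929 for Acsl4 with Dbr1.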

How the data were processed

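Bulk RNA-seq was analysed from 12 libraries of sorted Treg, made from 2 ng of total RNA with SMART-Seq v4, 12 amplification cycles and Nextera XT, per the labels' protocols. For each gene the authors deposited read counts by class: total exon reads (reads with more than 1 match included), unique exon reads, exon-exon reads, intron reads and gene reads, per the file headers. The submitters' processing notes name GRCm38 as genome build. Which aligner and counter were used is not given in the sources used here. This kit marks no strand and carries no molecular identifiers, so intervals and floors cover counting error only.

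Genes of the Ensembl-based sets 1 and 3 were joined on gene ID and those of set 2 by name with overlap of position (20742 genes, 91.9% to 95.9% of exon reads; 4 by synonym). Reads with more than 1 match made up 13.6% to 21.8% of exon reads. Pairs of libraries with a chi-square per gene under 10 were summed (3.96 for spleen 3 and 4 and 2.56 for vein wall 3 and 4, against 96.9 to 356 in the other 16 pairs). Total exon counts went into edgeR 4.0.16 under R 4.3.3 (quasi-likelihood, robust, TMM, default filter, tissue as the single factor, all 10 samples in 1 fit), with Benjamini-Hochberg adjustment over 11629 genes and a threshold of 0.05. CPM use TMM library sizes. Alternatives were the file set as covariate, 12 separate libraries, these with a replicate block, DESeq2 1.42.0, other size factors, no filter, unique exon reads, gene reads, and leaving out set 2 or each sample. Scripts were tested on simulated data.

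The 10 genes and all lists were chosen with earlier results of these data known. Named were the 10 genes and, from each pathway list, any called gene and the 2 with the smallest p in each comparison with the spleen, of which some are given. The first markers of each list were named too. The 3 genes with the highest correlation are given for Cd36, Fabp4, Nr1h3 and Lpl, and the highest alone for the others. Marker genes beyond the first 3 of a list were named after their values were seen. Lists of smooth muscle, erythroid, B cell and neutrophil markers were summed too (0.191 to 6.25, 2.48 to 2053, 121 to 1374 and 0 to 8.45 CPM over the samples).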

Additional observations from a re-analysis of the deposited data

Results flagged for a closer look

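Within the 4 thrombus samples, Cd36 in thrombus 1 (6.11 CPM) stood apart from the other 3, with a gap of 0.895 of the group's whole range. Nr1h3 in thrombus 2 (7.42 CPM) did so too, with a gap of 0.871 of the range. Both gaps are above Dixon's 95% critical value for 4 samples. The 10 genes gave 10 such groups, and chance flags about 1 in 20.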

How the results depend on the processing

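The edgeR fit with tissue only called 17 genes higher and 0 lower in thrombus against spleen. The counts were 50 and 3 with the set as covariate, 34 higher with 12 separate libraries, 47 and 4 when these had a replicate block, 103 and 1 with DESeq2, 77 and 3 with no filter, and 9 higher with gene reads. In vein wall against spleen the 13 higher and 0 lower became 45 and 3 with the set, 41 and 9 with 12 libraries, 54 and 10 with the replicate block, 88 and 30 with DESeq2 and 60 and 6 with no filter. Higher counts there were 7 with unique exon reads and 8 without set 2. In thrombus against vein wall the count of 0 higher became 10 with DESeq2 and 2 with no filter. Leaving out 1 sample at a time gave 6 to 34 higher and 0 to 1 lower in the thrombus, and 5 to 26 higher and 0 to 1 lower in the vein wall. Of the 10 genes, DESeq2 called 1 against the spleen in the thrombus and 1 in the vein wall (Cd36), and all other alternatives called 0. The cause of these shifts was not tested.

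Of the 30 fold changes of the 10 genes, 17 kept their direction under all 19 alternatives, Fabp4 in all 3 comparisons among them, and 13 did not. The 17 include Cd36 against the spleen, whose direction over exon reads is fixed by the 0 in every spleen sample and is no sign of stability. For Fabp4 the filter favoured a direction above the spleen. In thrombus against spleen Nr1h3 was -2.85 with the set, -0.91 with the replicate block and -2.60 without set 2. In vein wall against spleen Nr1h3 was -4.89 with the set, -0.49 with 12 libraries, -4.22 with the replicate block and -6.89 without set 2. There Abca1, near 0, was 0.0129 with 12 libraries, 0.00195 with DESeq2, 0.00223 with other size factors, 0.0815 with no filter, 0.0254 with unique exon reads and 0.14 without set 2. Without set 2 Lpl was 2.90, Acsl4 0.13 and Nr1h2 -0.0754, and with gene reads Nr1h2 was -0.00791. In thrombus against vein wall Nr1h2 was -0.00465 with the set, Nr1h3 -0.82 with gene reads and Cpt1a -0.0383 with the replicate block.

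Leaving out 1 sample at a time also turned the direction of Nr1h2 (-0.0703 to 0.40) and Nr1h3 (-2.04 to 1.77) in thrombus against spleen. In vein wall against spleen it did so for Lpl (-4.80 to 2.27), Abca1 (-0.73 to 0.59), Nr1h2 (-0.24 to 0.22), Nr1h3 (-6.30 to 1.59), Cpt1a (-0.28 to 1.07) and Acsl4 (-0.33 to 0.13). In thrombus against vein wall it did so for Fabp5 (-0.60 to 0.11), Abcg1 (-0.00367 to 0.74), Nr1h2 (-0.0887 to 0.40), Nr1h3 (-2.31 to 6.76) and Cpt1a (-0.16 to 1.11).

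The main fit did not pair the samples by the labels' experiment numbers. Deviations of libraries with the same number correlated by -0.0701 to 0.399, and 7 of 12 libraries correlated best with their own number. The highest value, of spleen 1 with thrombus 1, and others were of libraries that also share a file set. These values therefore cannot tell a pairing by number from the file set. The replicate block called 0 of the 10 genes. Cd36, Fabp4, Lpl and Nr1h3 each had fewer than 10 exon reads in most samples of at least 1 tissue.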
